A study of Mus musculus with 4 samples.

Results

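The genes described here are 53 genes of G2 phase and mitosis, taken as a fixed list of mitotic cyclins and kinases, kinesins, kinetochore and condensin subunits and their regulators. A gene was followed if a probe set carrying its symbol alone was called Present on 2 or more of the 4 arrays, and its brightest such probe set (highest mean log2 signal) stood for it. This gave 51 of the 53 genes, among 11656 genes tested in all, and all 51 were Present on all 4 arrays. The other two were Ccnb1 and Kif15. No probe set had Ccnb1 as its single symbol, so cyclin B1 is not described. The probe set of Kif15 was Absent on all 4 arrays, at 33.7 and 53.3 in p57+/+ against 32.6 and 23.7 in p57-/-.

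The samples were mesothelial and submesothelial cells isolated surgically from the livers of C57BL/6 embryos at embryonic day 17.5. Mesothelium is the epithelial sheet over the liver, and the submesothelial cells lie under it. Expression was measured on 4 single-colour Affymetrix arrays, 2 from p57-/- embryos (labelled Kip2 -/-) and 2 from wild-type p57+/+ embryos, and the titles place 1 array of each genotype in experiment 1 and 1 in experiment 2. Values are MAS5 signals on a linear scale, with each array scaled to the same mean, and a difference is log2 p57-/- minus log2 p57+/+. The labels do not say how many embryos a sample held or whether replicates came from separate litters. The p-values given here therefore rest on variation among the deposited samples alone, and that variation may be technical in part. The p57+/+ replicates differed in sex transcripts, as given below, so they were not repeats of the same RNA.

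On every array 48.5% to 50.1% of probe sets were Present. Cdkn1c, the gene that encodes p57, gave 10255 and 9866 in p57+/+ and was Absent at 7.79 and 7.28 in p57-/-, as the labels say. The p57+/+ replicates differed in sex transcripts. Replicate 1 had Xist at 12199 on its brightest probe set with Eif2s3y Absent, and replicate 2 had Xist at 86.7 with Eif2s3y at 1734. Both p57-/- replicates carried both transcripts, with Xist at 7889 and 6412 and Eif2s3y at 966 and 904. Sex transcripts thus differed between the genotypes too, and the part of sex in the differences was not tested. Of the 19 mesothelium markers with a probe set, 18 were tested, and Tbx18 was Absent on all 4 arrays. Markers of erythroid cells, hepatocytes, granulocytes, macrophages, megakaryocytes and endothelium were detected too. In such bulk samples, fewer dividing cells and less mitotic RNA per cell cannot be told apart.

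p57 is an inhibitor of cyclin-dependent kinases that holds cells in G1. Genes of G2 and mitosis are transcribed mainly in cells that have passed S phase, so their RNA is low in resting tissue and high in tissue with many dividing cells. In quiescent cells the DREAM repressor complex keeps them off, and in G2 the MYB-MuvB complex and the forkhead factor FOXM1 turn them on. Both complexes act through a short promoter element near the transcription start, the cell cycle genes homology region or CHR, often beside CCAAT boxes bound by NF-Y. The fetal liver is a site of blood formation, and its dividing cells include erythroid precursors, hepatoblasts and other lineages beside the surface layers.

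Promoter sequences are shown for 8 of the genes because the shared elements are what most of the group has in common beyond function. They are Kif4 and Ncapg, whose signals were lower in both experiments, Kif18a, whose experiments lay furthest apart, and Cdk1, Ccnb2, Cdc20, Mki67 and Top2a as central genes of the programme. Each line gives 150 bases, from 120 bases before the gene start to the first 30 bases of the transcript, from RefSeq on GRCm38.p6. Capitals mark matches to the CHR (TTTGAA on either strand, so also TTCAAA, or TTCGAA, which reads the same on both strands) and to the CCAAT box (CCAAT, or ATTGG on the other strand).
Kif4, chrX:100625945-100626094, plus strand: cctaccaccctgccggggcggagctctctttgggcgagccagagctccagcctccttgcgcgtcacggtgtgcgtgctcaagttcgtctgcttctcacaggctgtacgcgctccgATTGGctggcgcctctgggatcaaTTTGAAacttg
Ncapg, chr5:45669805-45669954, plus strand: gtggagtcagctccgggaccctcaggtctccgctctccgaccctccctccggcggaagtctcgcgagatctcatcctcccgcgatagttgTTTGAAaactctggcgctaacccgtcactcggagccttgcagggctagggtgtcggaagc
Kif18a, chr2:109280618-109280767, plus strand: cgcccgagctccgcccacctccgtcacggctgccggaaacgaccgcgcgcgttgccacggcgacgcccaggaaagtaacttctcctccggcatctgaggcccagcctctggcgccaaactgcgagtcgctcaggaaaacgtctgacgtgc
Cdk1, chr10:69352883-69353032, minus strand: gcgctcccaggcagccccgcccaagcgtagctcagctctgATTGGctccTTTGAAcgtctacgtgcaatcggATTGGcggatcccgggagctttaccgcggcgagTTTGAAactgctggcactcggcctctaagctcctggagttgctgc
Ccnb2, chr9:70421525-70421674, minus strand: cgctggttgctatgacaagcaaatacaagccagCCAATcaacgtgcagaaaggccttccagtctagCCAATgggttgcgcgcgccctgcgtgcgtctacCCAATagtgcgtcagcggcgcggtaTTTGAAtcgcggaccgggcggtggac
Cdc20, chr4:118437314-118437463, minus strand: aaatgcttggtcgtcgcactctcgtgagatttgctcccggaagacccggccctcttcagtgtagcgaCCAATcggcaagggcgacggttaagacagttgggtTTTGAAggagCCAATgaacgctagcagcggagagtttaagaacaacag
Mki67, chr7:135716350-135716499, minus strand: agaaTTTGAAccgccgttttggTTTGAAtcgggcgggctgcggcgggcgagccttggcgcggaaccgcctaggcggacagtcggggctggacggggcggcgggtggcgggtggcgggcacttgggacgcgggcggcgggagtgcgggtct
Top2a, chr11:99024160-99024309, minus strand: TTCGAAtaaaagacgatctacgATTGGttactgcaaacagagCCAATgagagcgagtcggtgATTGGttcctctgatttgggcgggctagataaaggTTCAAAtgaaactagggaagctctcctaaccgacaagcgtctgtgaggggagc

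Promoter windows of 300 bases, from 250 before the start to 50 after, were matched by symbol for 43 of the 51 genes, with 48 windows in all. A CHR match lay in 34 of the 48 windows (70.8%), against 19.2% of all 32851 windows of the same length. A CCAAT match lay in 35 (72.9%, against 37.4% of all), and both lay in 30 (62.5%, against 7.52%). In no member window did a CHR match overlap a CCAAT match. The CHR matches crowded at the start: within 50 bases on either side, a window chosen after the matches were seen, 30 of the 48 windows held one, against 5.31% of all windows. Kif18a had neither element in its window, which says only that these letters are not there. A letter match is a description and not a binding site. The 31 genes with a CHR match had a median difference of -0.26 in experiment 1 and 0.04 in experiment 2, and the 12 without one had -0.34 and 0.14.

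**Figure D1:**
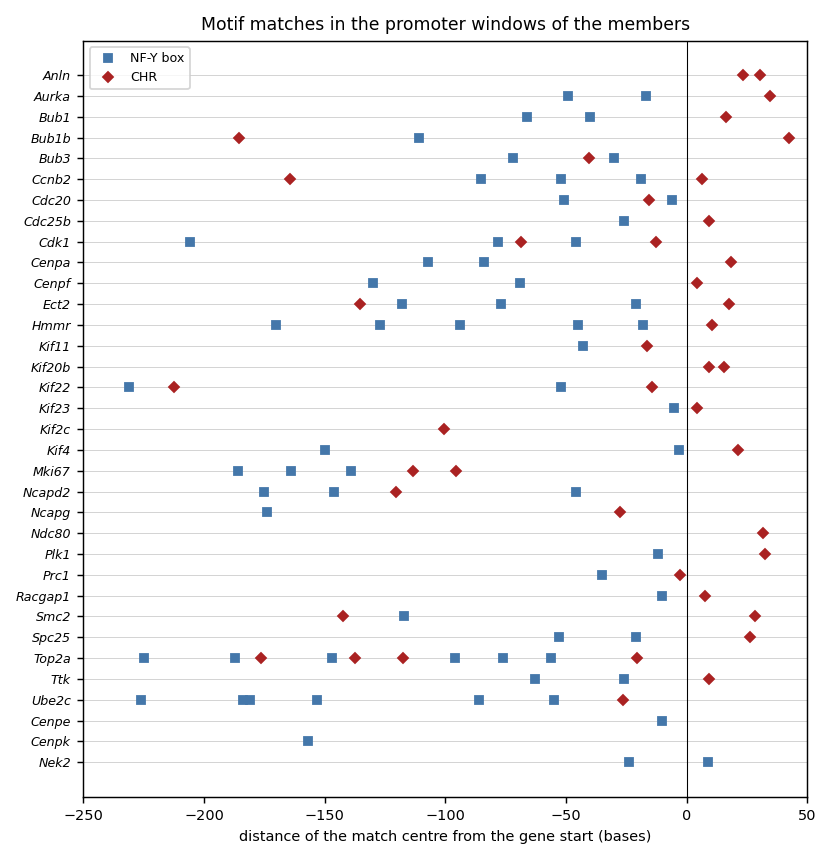
Positions of CHR (red diamonds) and CCAAT matches (NF-Y boxes, blue squares) in the promoter windows of the mitotic genes, against distance from the gene start in bases, with 1 window per gene (the one of lower coordinate where there were several). The 34 genes with any match are drawn, and most CHR matches lie close to the start, with CCAAT matches mostly upstream of them.

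No mitotic or G2/M gene passed the test between genotypes. The test was limma on all 22800 tested probe sets with Benjamini-Hochberg adjustment, and a gene was called at an adjusted p under 0.05. It called 0 of the 51 genes, beside 0.00439% of all probe sets, a single probe set, that of Cdkn1c. The lowest adjusted p among the 51 was 0.549, and at an unadjusted p under 0.05 there was 1 gene lower (Kif4) and 0 higher, against 4.07% and 4.7% of all genes. Mean signals were lower in p57-/- for 37 genes and higher for 14, with a median difference of -0.14, beside 0.02 over all genes. The 95% intervals reached 0.27 to 0.65 log2 units to either side of the estimate, and for 48 of the 51 genes they lay within 1 log2 unit of no difference.

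The mitotic genes were lowest on 1 library. The signal on p57-/- replicate 1 was the lowest of the 4 arrays for 49 of the 51 genes, where that array was the lowest for 27.8% of all genes. On p57-/- replicate 2 it was the highest of the 4 for 29 of the 51, against 21.9% of all genes. The p57-/- replicates differed from each other in the same way throughout: replicate 2 lay above replicate 1 for 50 of 51 genes, by a median of 0.4 log2 units and up to 0.95. The p57+/+ replicates split evenly by comparison, with replicate 2 above replicate 1 for 29 genes and below for 22, and a median difference of 0.04. For 46 of the 51 genes the gap between the p57-/- replicates was larger than the difference between the genotype means.

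**Figure D2:**
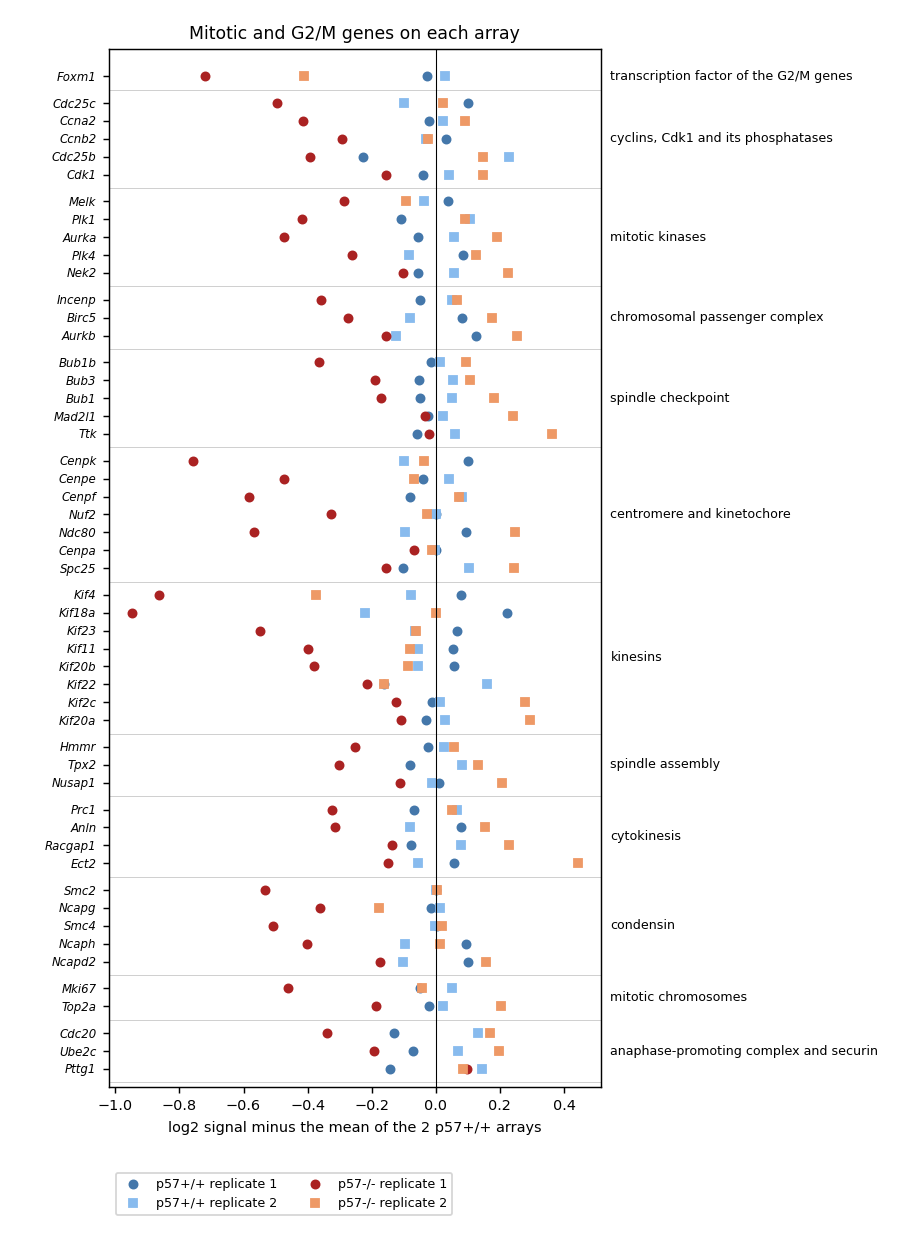
Log2 signal of each of the 51 genes on each array, minus the mean of the 2 p57+/+ arrays, grouped by role. Red circles (p57-/- replicate 1) form the left edge for 49 genes. Orange squares (p57-/- replicate 2) lie among or to the right of the blue p57+/+ points except for 10 genes, Foxm1, Kif4 and Ncapg among them.

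The experiments therefore gave different pictures of the genotypes. In experiment 1, 49 genes were lower in p57-/- and 2 were higher (Ttk and Pttg1), with a median of -0.31, or 1.24-fold, and a range from -1.17 to 0.24. Lower signals in experiment 1 were found for 46.3% of all genes. In experiment 2, 16 were lower and 35 higher, with a median of 0.06 and a range from -0.44 to 0.5, and 50.8% of all genes were lower. A drop of at least 0.5 log2 units was seen for 10 of the 51 in experiment 1 (8.42% of all genes) and for 0 in experiment 2 (7.69% of all genes). Within an experiment there was 1 array per genotype, so neither these differences nor the gap between the experiments could be tested. The labels do not say what the arrays of an experiment shared, and the deviations of same-numbered arrays correlated at only 0.005.

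Agreement between the experiments was limited. Both were lower in p57-/- for 15 of the 51 genes, against 26.7% of all genes (for 20 with quantile normalization, and for 20 with the mean of each gene's probe sets), and both were higher for 1 gene, Ttk, against 29.6%. For 34 genes experiment 1 was lower and experiment 2 higher, against 19.6% of all genes. Both p57-/- signals lay below both p57+/+ signals for 10 of the 51, Foxm1, Melk, Cenpa, Cenpe, Nuf2, Kif4, Kif11, Kif20b, Kif22 and Ncapg, a share close to the 19.0% of all genes that did so. In several of these 10 the groups were nearly touching. Cenpa gave 3272 and 3266 in p57+/+ against 3120 and 3243 in p57-/-, and Kif22 gave 3908 and 4881 against 3765 and 3903. No gene of the 51 had both p57-/- signals above both p57+/+ signals, where 21.7% of all genes did.

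**Figure D3:**
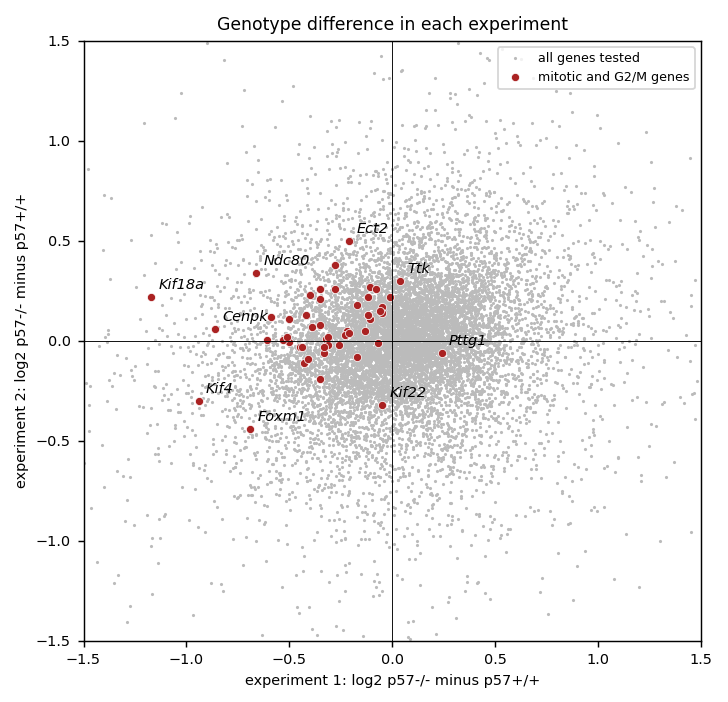
Difference between genotypes (log2 p57-/- minus p57+/+) in experiment 1 (horizontal) and experiment 2 (vertical) for the 51 mitotic genes (red) and all genes tested (grey; 235 of the 11656 lie beyond the axes). The red points lie left of 0 for 49 genes and scatter around 0 on the vertical axis. Kif4 and Foxm1, negative on both, have the largest differences of the 51 over both experiments, at -0.62 and -0.56.

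Foxm1, the forkhead activator of the G2/M programme, gave 210 and 218 in p57+/+ against 130 and 161 in p57-/-, experiment 1 first. The groups did not overlap, and p57-/- replicate 1 was the lowest array. The difference was -0.56 (SE 0.25, 95% interval -1.13 to 0.00036), -0.69 in experiment 1 and -0.44 in experiment 2, and it did not pass (limma adjusted p = 0.642). A second tested probe set of Foxm1 gave 123 and 141 against 82.9 and 108, again without overlap. Its remaining 2 probe sets were Absent on all 4 arrays.

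Among the cyclins and their kinase, Cdk1, which drives entry into mitosis, gave 4845 and 5123 in p57+/+ against 4476 and 5522 in p57-/-. The p57-/- values enclosed the p57+/+ values, and the difference was -0.003 (SE 0.13), with a 95% interval from -0.3 to 0.3. Its partners behaved alike: Ccna2, cyclin A2, gave 8724 and 8986 against 6643 and 9422, and Ccnb2, cyclin B2, gave 5366 and 5145 against 4287 and 5166. For both, only p57-/- replicate 1 left the p57+/+ range downward. The phosphatases that remove the inhibitory phosphates from Cdk1 differed by experiment. Cdc25c gave 394 and 343 against 261 and 373, a difference of -0.59 in experiment 1 and 0.12 in experiment 2 (limma adjusted p = 0.822 over both). Cdc25b gave 2073 and 2842 against 1847 and 2686, so that in both genotypes experiment 2 was the higher.

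The mitotic kinases all had their lowest signal on p57-/- replicate 1. Aurka, the Aurora kinase of centrosomes and spindle poles, gave 2631 and 2845 in p57+/+ against 1970 and 3124 in p57-/-, a difference of -0.14 (SE 0.2, limma adjusted p = 0.888). Plk1, the Polo-like kinase needed from mitotic entry to cytokinesis, gave 1419 and 1648 against 1145 and 1628, a difference of -0.16 (SE 0.18, limma adjusted p = 0.852). In both genes the p57-/- replicates lay further apart than the genotype means. Plk4, the kinase of centriole duplication, gave 2865 and 2550 against 2255 and 2947, and Nek2, a centrosome kinase, gave 1771 and 1913 against 1714 and 2151. Melk was the only one of the 5 whose groups did not overlap, with 979 and 929 in p57+/+ above 781 and 894 in p57-/-.

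Aurkb, Incenp and Birc5 encode the kinase, the scaffold and the survivin subunit of the chromosomal passenger complex, which corrects chromosome attachment and directs cytokinesis. Aurkb gave 1508 and 1267 in p57+/+ against 1241 and 1649 in p57-/-, lower by 0.28 log2 units in experiment 1 and higher by 0.38 in experiment 2. Over both it was at 0.05 (SE 0.17, 95% interval -0.34 to 0.44). Incenp gave 7230 and 7745 against 5834 and 7826, and Birc5 gave 7476 and 6692 against 5848 and 7993. On these probe sets all 3 were thus lowest on p57-/- replicate 1 and highest on p57-/- replicate 2. The next-brightest probe set of Incenp went the other way, with 1703 and 1652 in p57+/+ against 1764 and 1398 in p57-/-. The second of Aurkb gave 1055 and 896 against 894 and 1018, lowest on p57-/- replicate 1 but highest on p57+/+ replicate 1.

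Spindle checkpoint genes, whose products delay anaphase until every kinetochore is attached, had a median of -0.12 in experiment 1 and 0.13 in experiment 2. Ttk, the checkpoint kinase Mps1, gave 816 and 887 in p57+/+ against 838 and 1094 in p57-/-, a difference of 0.17 (SE 0.17, limma adjusted p = 0.831), the largest upward difference of the 51. Its groups overlapped. Mad2l1, which encodes the MAD2 inhibitor of the anaphase-promoting complex, gave 4345 and 4490 against 4318 and 5218, a difference of 0.1 (SE 0.13, limma adjusted p = 0.872). Bub1, Bub1b and Bub3 were at -0.12, -0.35 and -0.13 in experiment 1, and at 0.13, 0.08 and 0.05 in experiment 2.

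The 7 centromere and kinetochore genes had a median of -0.43 in experiment 1 and -0.01 in experiment 2. Cenpk, of the inner kinetochore, gave 2329 and 2029 in p57+/+ against 1286 and 2117 in p57-/-, a difference of -0.4 (SE 0.21, limma adjusted p = 0.681). Its p57-/- replicate 1 signal was 1.81-fold below that of p57+/+ in experiment 1, while in experiment 2 the genotypes stood at 2029 and 2117. Ndc80, the microtubule-binding subunit of the outer kinetochore, gave 769 and 674 against 486 and 854, 1 value below and 1 above the p57+/+ pair, and its experiments were at -0.66 and 0.34. Cenpe, a kinetochore motor, gave 1289 and 1363 against 955 and 1263, a difference of -0.27 (SE 0.17, limma adjusted p = 0.718) with no overlap. Cenpf gave 2803 and 3132 against 1978 and 3114, a difference of -0.26 (SE 0.2, limma adjusted p = 0.77). Nuf2, the partner of Ndc80, was steady in p57+/+ at 2349 and 2346 and gave 1873 and 2304 in p57-/-. Spc25, of the same complex, gave 3523 and 4062 against 3394 and 4478.

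The kinesins held both the lowest p and the widest disagreement. Kif4, a chromokinesin of chromosome condensation and the anaphase midzone, gave 914 and 821 in p57+/+ against 476 and 668 in p57-/-, without overlap. The difference was -0.62 (SE 0.19, 95% interval -1.06 to -0.18), or 1.54-fold lower, with -0.94 in experiment 1 and -0.3 in experiment 2, and it did not pass (limma adjusted p = 0.549). Kif4 is X-linked, and the p57+/+ arrays with and without Xist, replicates 1 and 2, gave 914 and 821. The part of sex in its difference was not tested. Kif18a, which restrains the movements of chromosomes at the metaphase plate, gave 806 and 593 against 358 and 692. It was 2.25-fold lower in experiment 1 (-1.17) and at 0.22 in experiment 2, the widest gap between experiments of the 51, with -0.47 overall (SE 0.29, limma adjusted p = 0.718).

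Of the other kinesins, Kif11, the motor that separates spindle poles, gave 1616 and 1498 in p57+/+ against 1179 and 1470 in p57-/-, a difference of -0.24 (SE 0.15, limma adjusted p = 0.729). Kif20b gave 722 and 669 against 534 and 654, a difference of -0.23 (SE 0.17, limma adjusted p = 0.761). In both genes the groups did not overlap, but the experiment 2 pair differed by only -0.03. Kif23, the motor of centralspindlin, gave 1435 and 1312 against 938 and 1314. Kif2c, a microtubule depolymerase, gave 1564 and 1589 against 1447 and 1912, and Kif20a, a motor of cytokinesis, gave 1120 and 1167 against 1061 and 1400. These last 2 were lowest on p57-/- replicate 1 and highest on p57-/- replicate 2.

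Condensin genes, whose products compact mitotic chromosomes, had a median of -0.5 in experiment 1 and 0.02 in experiment 2. On their brightest probe sets, the core ATPase genes Smc2 and Smc4 each had 3 near-equal values and 1 low one. Smc2 gave 5568, 5562 and 5577 on 3 arrays and 3844 on p57-/- replicate 1. Smc4 gave 9363, 9320 and 9476 on the same 3 arrays and 6574 on p57-/- replicate 1. Their other probe sets did not show 3 near-equal values. The next-brightest of Smc2 gave 764 and 629 in p57+/+ against 536 and 678 in p57-/-. That of Smc4 gave 5667 and 5001 against 4819 and 6283. Ncapg, a regulatory subunit, was lower on both p57-/- arrays, with 1564 and 1594 against 1228 and 1396, and a difference of -0.27 (SE 0.14, limma adjusted p = 0.675). Ncaph gave 3555 and 3116 against 2519 and 3359, and Ncapd2 gave 2408 and 2093 against 1990 and 2502.

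Mki67, which encodes the proliferation antigen Ki-67 that coats mitotic chromosomes, gave 18680 and 20035 in p57+/+ against 14058 and 18770 in p57-/-. Both experiments were negative, at -0.41 and -0.09, but the groups overlapped narrowly, and the difference of -0.25 (SE 0.14, 95% interval -0.57 to 0.07) did not pass (limma adjusted p = 0.699). Top2a, the topoisomerase that untangles sister chromatids, gave 8865 and 9126 against 7900 and 10365. Its p57-/- values enclosed its p57+/+ values, and its difference was 0.0087 (SE 0.14, 95% interval -0.31 to 0.32), with a sign that turned negative under quantile normalization and median scaling.

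**Figure D4:**
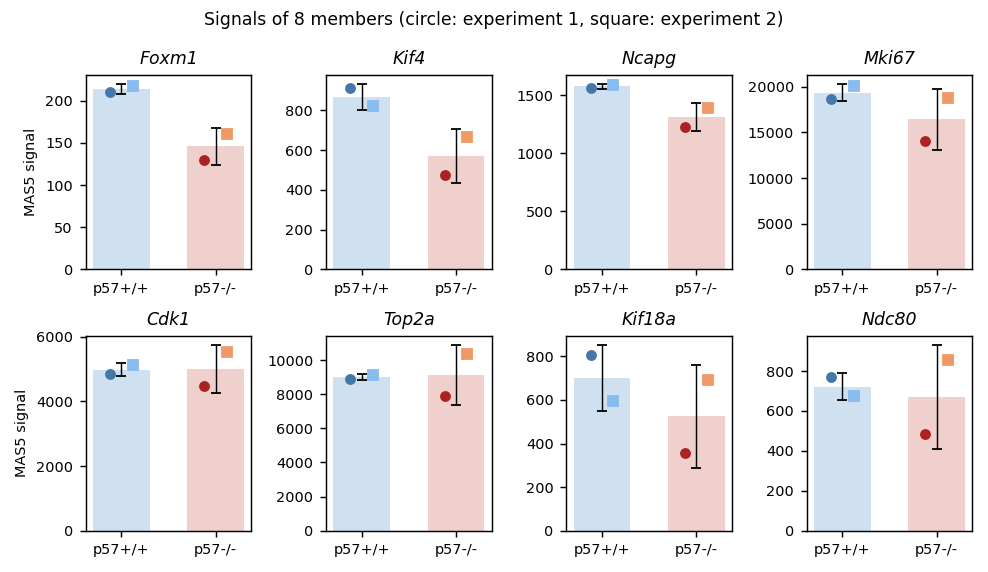
MAS5 signals of 8 genes by genotype. Bars are means, error bars are the SD of 2 arrays, circles are experiment 1 and squares experiment 2. On the probe sets drawn, the groups do not overlap for Foxm1, Kif4 and Ncapg. For Cdk1, Top2a and Ndc80 the p57-/- replicates lie on either side of the p57+/+ values. Of the 51 genes, 10 were lower without overlap, against 19.0% of all genes, and none of the 51 passed the test.

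Genes of the spindle and of cytokinesis were also lowest on p57-/- replicate 1. Tpx2, the activator of Aurora A, gave 1540 and 1722 in p57+/+ against 1322 and 1783 in p57-/-. Nusap1 gave 6601 and 6503 against 6061 and 7560, and Hmmr gave 3268 and 3384 against 2794 and 3457. Among the cytokinesis genes, Ect2, the exchange factor that activates RhoA at the cleavage furrow, gave 2613 and 2414 against 2264 and 3417, a difference of 0.15 (SE 0.18, limma adjusted p = 0.873) with experiments at -0.21 and 0.5. Racgap1, the subunit of centralspindlin that recruits Ect2, gave 1257 and 1402 against 1208 and 1556. Anln, the scaffold anillin, gave 3697 and 3310 against 2810 and 3891, and Prc1, which bundles midzone microtubules, gave 2596 and 2848 against 2174 and 2814.

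Among the genes of mitotic exit, Cdc20, the activator of the anaphase-promoting complex, gave 8137 and 9752 in p57+/+ against 7037 and 10005 in p57-/-. Ube2c, the ubiquitin-conjugating enzyme of that complex, gave 15628 and 17229 against 14346 and 18803. In both, experiment 2 was above experiment 1 in either genotype. Pttg1, which encodes securin, broke the pattern, with 5203 and 6340 against 6148 and 6087, so its lowest value was p57+/+ replicate 1.

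Other probe sets of the same genes repeated the split between the experiments. Of the 51 genes, 32 had more than 1 tested probe set, which gave 48 probe sets besides those used above. In experiment 1, 42 of the 48 were lower in p57-/-, with a median of -0.25, and in experiment 2, 19 were lower, with a median of 0.03. They were read from the same arrays and are not independent samples. Within 10 genes the probe sets disagreed on the sign of the genotype difference. For Ncapg the second probe set was at -0.02 (SE 0.21), with 407 and 348 in p57+/+ and 319 and 429 in p57-/-, so its separation by genotype rests on 1 probe set, and the mean over both was at -0.15. For Cenpk the mean over both probe sets was at -0.61, beside -0.4 on the brighter one. The second was dim, with 67.0 and 61.0 in p57+/+ and 33.0 and 39.5 in p57-/-, and its difference was imprecise at -0.82 (SE 0.48).

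The wider mitotic machinery was read from a list of 107 further tested genes. None of the 107 passed, 7 were lower and 2 higher at an unadjusted p under 0.05, against 4.07% and 4.7% of all genes, and the median difference was -0.1, of -0.22 in experiment 1 and 0.05 in experiment 2. Their signal was lowest on p57-/- replicate 1 for 73 of 107, against 27.8% of all genes. The genes of lowest p on the lower side were Cdc27, a core subunit of the anaphase-promoting complex, at -0.53 (SE 0.15, limma adjusted p = 0.549), Tubg1, gamma-tubulin, at -0.56 (SE 0.18, limma adjusted p = 0.557), and Cdc34, a ubiquitin-conjugating enzyme, at -0.35 (SE 0.12, limma adjusted p = 0.578). Cdc27 gave 2126 and 1922 in p57+/+ against 1287 and 1524 in p57-/- on its brightest probe set, but its mean over all probe sets was at 0.03. On the higher side were Cep55, which acts in abscission, Psrc1 and Iqgap3. Cep55 gave 883 and 937 against 1164 and 1299, a difference of 0.43 (SE 0.15, limma adjusted p = 0.565), and Psrc1 gave 679 and 673 against 1103 and 841, at 0.51 (SE 0.17, limma adjusted p = 0.576). On these probe sets both genes were higher on both p57-/- arrays, but the mean over all probe sets of Psrc1 was at 0.27. Iqgap3 was at 0.35 (SE 0.18, limma adjusted p = 0.679).

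DNA replication genes, transcribed earlier in the cycle, were lower in p57-/- in experiment 1 without exception. Of 35 tested replication genes, 24 were lower in both, and in 22 both p57-/- signals lay below both p57+/+ signals, beside 15 and 10 of the 51, and 26.7% and 19.0% of all genes. Their medians were -0.67 in experiment 1 and -0.08 in experiment 2, and 34 of the 35 were lowest on p57-/- replicate 1, against 27.8% of all genes. None passed, and 11 were lower at an unadjusted p under 0.05, against 4.07% of all genes. The 3 of lowest p were the replicative helicase genes Mcm4, Mcm2 and Mcm6, at -0.55 (SE 0.13), -0.68 (SE 0.17) and -0.58 (SE 0.15), each with limma adjusted p of 0.519 to 0.549. Without p57-/- replicate 2, which leaves p57-/- replicate 1 as the lone array of its genotype, Mcm2 was at -0.93 and Mcm6 at -0.81. The difference between the lists was not tested.

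Markers of some other cell types also stood apart on p57-/- replicate 1, and others did not. All 17 tested erythroid markers were lower in experiment 1 and 15 in experiment 2, with medians of -0.7 and -0.21, and all 17 were lowest on p57-/- replicate 1, against 27.8% of all genes. Their summed signal was 150550 and 159135 in p57+/+ and 99688 and 138951 in p57-/-, and none of the 17 with a probe set was Absent on all 4 arrays. The summed signal of the 51 mitotic genes was 191158 and 198975 in p57+/+ and 159274 and 208821 in p57-/-, so it too was lowest on p57-/- replicate 1, but highest on p57-/- replicate 2. Endothelial and megakaryocyte markers went the other way on p57-/- replicate 1. The 14 tested endothelial genes had medians of 0.46 and -0.17 in experiments 1 and 2, and the 9 megakaryocyte genes had 0.55 and -0.24. The summed endothelial signal was 12454 and 14186 against 16440 and 12469, with Pecam1 Absent on all 4 arrays. Mesothelium markers had medians of 0.0 and -0.08 over 18 genes. Hepatocyte markers had medians of 0.19 and -0.19 in experiments 1 and 2 over 18 genes, mesenchymal and stellate cell markers 0.3 and 0.06 over 18, granulocyte markers 0.21 and 0.16 over 13, and macrophage markers 0.25 and -0.17 over 14. The part of these cell types in the mitotic signals was not tested.

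**Figure D5:**
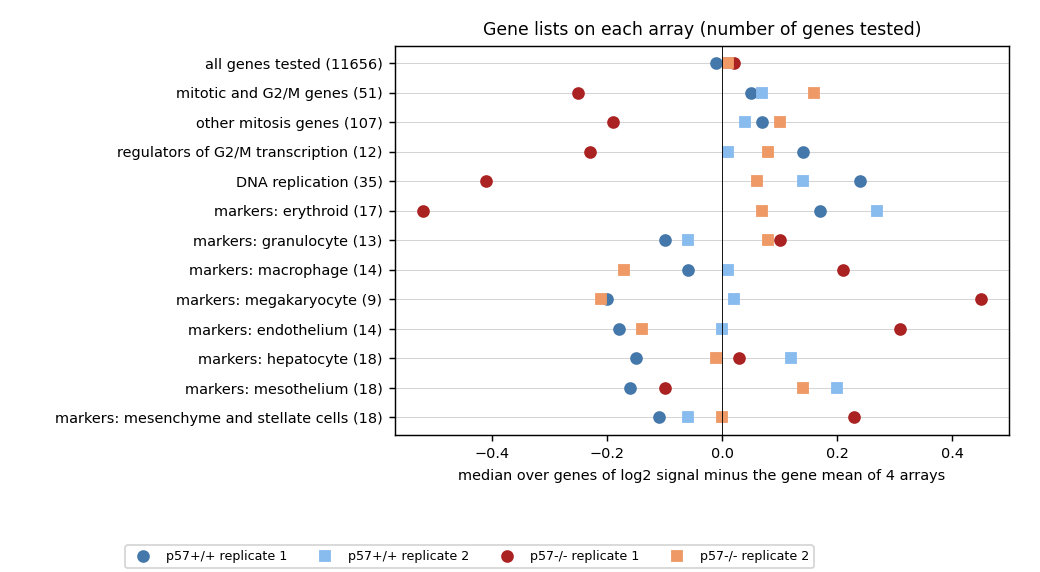
For each gene list, the median over its tested genes of log2 signal minus that gene's mean over the 4 arrays, 1 point per array. The mitotic genes, other mitosis genes, DNA replication genes and erythroid markers share their lowest point on p57-/- replicate 1 (red circles), at -0.25, -0.19, -0.41 and -0.52, while megakaryocyte and endothelial markers have their highest points there, at 0.31 and 0.45 in the order endothelial, megakaryocyte.

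Leaving out 1 p57-/- array at a time changed the direction of the group. Without p57-/- replicate 1 the median of the 51 genes was 0.09, with 0 genes lower and 1 higher (Ect2, 0.44) at an unadjusted p under 0.05, where 3.7% and 2.77% of all genes were. Without p57-/- replicate 2 the median was -0.32 and 19 of the 51 were lower at that level, against 7.74% of all genes, and 0 were higher, against 7.48%. Without p57+/+ replicate 1 there were 0 genes lower and 0 higher at that level, against 2.8% and 3.58% of all genes, and the median was -0.14. Without p57+/+ replicate 2 there were 1 lower (Kif4) and 0 higher, against 2.07% and 3.48%, and the median was -0.1. None of the 51 passed after adjustment over all probe sets. The lowest limma adjusted p, without p57-/- replicate 2, was 0.0531 for Cenpk at -0.76, followed by Kif4 at -0.86 (limma adjusted p = 0.0636). Without p57-/- replicate 1, some genes given above with a lower mean came within 0.1 log2 units of no difference, on either side. Of these, Cenpk at -0.04, Mki67 at -0.04, Cenpe at -0.07, Kif11 at -0.08 and Kif20b at -0.09 stayed negative. Kif18a at 0.00059, Cdc25c at 0.02, Cenpf at 0.07 and Plk1 at 0.09 turned positive. Other genes of lower mean lay further off. Foxm1 was at -0.41, Kif4 at -0.37 and Ncapg at -0.18, while Cdk1 at 0.15, Aurka at 0.19 and Ndc80 at 0.25 turned positive. In each of these fits the lone array of a genotype is assumed to vary as the other genotype's pair does.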

How the data were processed

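RNA (250 ng total) was labelled and hybridised to 4 arrays, 1 per sample. The authors deposited MAS5 signal intensity values per probe set with a detection call and a detection p-value, per the file headers and, for MAS5, the submitters' processing notes; the MAS5 version is not given in the sources used here. Trimmed means were equal on all 4 arrays. Symbols came from the platform annotation: of 45101 probe sets, 34945 had 1 symbol, 932 several and 9160 none, and 64 were controls.

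Control probe sets and those Present on fewer than 2 arrays were left out, which kept 22800. Log2 signals, with no pseudocount, were compared with limma 3.58.1 (R 4.3.3; lmFit, and eBayes with a variance trend), 2 arrays against 2, with no block and Benjamini-Hochberg adjustment over all tested probe sets. The fit was tested on simulated data. A pseudocount of 16, other scalings, filters and variance models, the experiment as a replicate block, the mean of a gene's probe sets and leaving out each array were the alternatives. The number of arrays limits the precision.

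The genes, lists and tests were chosen with earlier results of these data known. Full statistics are given for Foxm1, Cdk1, Aurka, Aurkb, Plk1, Top2a and Mki67 whatever they did, for the 8 genes of largest change with the same sign in both experiments, for the 6 whose experiments lay furthest apart with opposite signs, and for the 2 of lowest p in each direction. Of other lists, the 3 genes of lowest p in each direction are named; the erythroid, other marker and replication lists are given by their counts.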

Additional observations from a re-analysis of the deposited data

How the results depend on the processing

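No mitotic gene passed under any of the 12 alternatives, and the lowest adjusted p of a named one was 0.0531. Of 160 values of the 20 named genes under alternatives other than leaving out an array, 157 kept their direction. The 3 exceptions were all Top2a, at -0.0092 with quantile normalization, -0.0032 with median scaling and -0.08 when its probe sets were averaged, and Cdc27, of the wider list, went to 0.03 when averaged. The causes were not tested. Genes higher in both experiments numbered 2 with quantile normalization and 2 with the mean of probe sets, and genes lower in both numbered 20 with each, and 14 to 16 with the others. Over all probe sets, 0 were called lower when Present on all 4 arrays was required, since that removes Cdkn1c. With the experiment as a replicate block 10 were called higher and 20 lower, none of them a mitotic gene. The deviations of same-numbered arrays correlated at 0.005 over 22800 probe sets, so the main fit did not pair the samples by number. The differences by experiment set same-numbered arrays side by side as a description only.

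Leaving out 1 array gave 1 to 98 probe sets higher and 1 to 123 lower. It moved the log2 difference of Cdk1 from -0.15 to 0.15, Cdc25c from -0.49 to 0.02, Aurka from -0.47 to 0.19, Plk1 from -0.42 to 0.09, Aurkb from -0.16 to 0.25, Mad2l1 from -0.03 to 0.24, Ttk from -0.02 to 0.36, Cenpf from -0.58 to 0.07, Ndc80 from -0.57 to 0.25, Kif18a from -0.95 to 0.00059, Ect2 from -0.15 to 0.44 and Top2a from -0.19 to 0.2. Beyond the 51, it moved Rbbp4 from -0.28 to 0.02, Cdkn1a from -0.14 to 0.53 and Rbl2 from -0.0044 to 0.19. The sign held for 8 named genes, Foxm1 (-0.72 to -0.41), Kif4 (-0.86 to -0.37), Ncapg (-0.36 to -0.18), Cenpe (-0.47 to -0.07), Cenpk (-0.76 to -0.04), Kif11 (-0.4 to -0.08), Kif20b (-0.38 to -0.09) and Mki67 (-0.46 to -0.04). All 8 lay nearest 0 without p57-/- replicate 1, and the last 5 then lay within 0.1 log2 units of 0. Medians by experiment cannot be given with an array left out.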

Other observations

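Genes whose products regulate G2/M transcription were read as a list of 12 tested genes of the DREAM, MuvB, E2F and CDK-inhibitor families, and none passed. Their medians were -0.32 in experiment 1 and 0.07 in experiment 2, and 8 of the 12 were lowest on p57-/- replicate 1, against 27.8% of all genes. The lower genes of lowest p were Tfdp1, the dimer partner of E2F factors, at -0.26 (SE 0.13, limma adjusted p = 0.671), Rbl1, which encodes p107, at -0.24 (SE 0.16, limma adjusted p = 0.742), and Rbbp4 at -0.13 (SE 0.13, limma adjusted p = 0.823). Tfdp1 gave 4315 and 3842 in p57+/+ against 3116 and 3694 in p57-/-, without overlap. Of the 12 genes, 1 had both p57-/- signals below both p57+/+ signals and 1 had both above, against 19.0% and 21.7% of all genes. On the higher side were Cdkn1a, which encodes the related inhibitor p21, at 0.2 (SE 0.24, limma adjusted p = 0.866), Rbl2, which encodes p130, at 0.09 (SE 0.18, limma adjusted p = 0.924), and E2f5 at 0.07 (SE 0.16, limma adjusted p = 0.935). Cdkn1a gave 400 and 490 against 641 and 403, so its only high value was on p57-/- replicate 1. Any link with the mitotic signals was not tested. With the mean over all probe sets Cdkn1a was at 0.05 and Rbl2 at 0.25. Lin37 and Lin52 were Absent on all 4 arrays.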
